A study of Rattus norvegicus with 4 samples.

Results

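The Bex (brain expressed X-linked) genes form a small family of the X chromosome, and 4 of them, Bex1, Bex2, Bex4 and Ngfrap1, were found by symbol among the 25810 genes of the count files. Ngfrap1 is the old name of Bex3. Bex1 was picked from its counts, as a gene that the study lists for REST datasets and that was not lower in the high-REST clone, and the other three were taken by family name. All 4 passed the filter on low counts that left 13726 genes for the test. RNA of 2 clones of PC12, a line isolated from a rat pheochromocytoma, was sequenced in 2 libraries each. wtPC12 is the clone labelled as wild type with low REST levels, and hrPC12, called PC12-27 in earlier work, is the clone labelled as high REST. No agent or engineered allele is given for either clone, and REST is high in hrPC12 spontaneously. With a single clone at each REST level, effects of REST and other differences of the clones cannot be told apart, and nothing says whether the 2 libraries of a clone came from separate cultures, so the spread may be technical.

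Bex genes code for small proteins that are found mostly in brain and in endocrine cells. BEX1 and BEX3 are known to bind the intracellular part of p75NTR, the neurotrophin receptor encoded by Ngfr, and BEX3 was first described as NADE, an executor of cell death downstream of that receptor. BEX2 is known as a partner of the LMO2 transcriptional complex, and BEX4 as a protein that binds tubulin and SIRT2. REST, the repressor that distinguishes the clones, silences neural genes in most nonneural cells by binding a DNA element called RE-1. PC12 cells derive from chromaffin cells, which descend from the neural crest.

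The symbols Bex1 and Bex2 call for care. In the RefSeq annotation of the rat assembly GRCr8, Bex2 is listed as an older name of Bex1, and Bex1 as an older name of Bex2. The count files pair no identifier with the symbols and rest on the older build rn4, so the row called Bex1 could hold the gene that is now called Bex2, and the reverse. The names used here are those of the count files. The genes may also be alike enough in sequence to share reads, which was not examined here.

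Among the promoter sequences used here, those of RefSeq for GRCr8, the family is represented by Bex3, the gene counted as Ngfrap1. The 250 bases before its start, chrX:104064646-104064895 on the plus strand, are shown because Ngfrap1 was lower in hrPC12 and REST acts through DNA elements that can lie in promoters. CpG dinucleotides are in capitals.
Bex3 promoter: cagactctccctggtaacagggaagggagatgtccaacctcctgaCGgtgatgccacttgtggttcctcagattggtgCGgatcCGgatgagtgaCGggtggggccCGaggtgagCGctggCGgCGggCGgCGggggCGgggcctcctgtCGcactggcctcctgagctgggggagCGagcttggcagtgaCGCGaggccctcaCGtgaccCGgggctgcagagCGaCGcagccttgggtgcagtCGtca
This stretch holds 20 CpG dinucleotides and 68.0% G and C. Over the whole window, from 250 bases before to 50 after the start, there were 26 CpG dinucleotides, more than in 83.5% of the 27457 rat promoters of that length, whose median is 7. Both parts of RE-1 were searched for as the letters CAGCACC and GGACAGC on both strands, where matches of the pair can overlap by the letters CAGC. Neither was found in the Bex3 window, in 300 or in 250 bases, and they occur in 6.91% and 6.64% of all promoter windows of 300 bases. This says only that these letters are not in this window.

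Reads counted on genes ranged from 20975027 to 27246502 per library. Counts are given as normalized counts, that is, reads divided by the library's size after edgeR's TMM scaling and multiplied by the mean size. The log2 FC fitted by edgeR compares hrPC12 with wtPC12 and is given with its standard error (SE). Genes are called DE genes where the adjusted p is below 0.01 and the log2 FC is beyond −2 or 2. Rest had 43.0 and 132 normalized counts in wtPC12 and 964 and 915 in hrPC12, higher in both hrPC12 libraries, as were 37.9% of all tested genes. Its log2 FC was 3.42 (SE 0.57, adjusted p = 0.0115 by edgeR's quasi-likelihood test, Benjamini-Hochberg), so Rest was not a DE gene in this fit. With edgeR's RLE factors, library totals alone, no filter beyond 1 read, edgeR's legacy option off or DESeq2, Rest passed both thresholds. It also became a DE gene at an adjusted p under 0.05, but not with glmTreat, edgeR's filterByExpr or a prior count of 2. The log2 FC of Rest lay between 2.80 and 4.44 with each library left out. The median log2 FC of all tested genes was 0.06. Of 7 markers of chromaffin cells 6 were found and tested, and 4 of these were DE genes lower in hrPC12. Among all tested genes 5.46% were. Of the others, Ddc had 24196 and 20841 normalized counts in wtPC12 and 26281 and 27994.5 in hrPC12. Gata3 had a log2 FC of −0.03. The summed level of the 6 was 797394 to 934298 normalized counts in wtPC12 and 45649 to 50228 in hrPC12. Most of the wtPC12 sum was Chgb, with means of 657356 in wtPC12 and 554 in hrPC12, and Ddc held the largest part in hrPC12. Summed markers of fibroblasts lay at 33.0 to 48.9 in wtPC12 and at 462 to 508 in hrPC12, and those of white blood cells at 13.4 to 26.8 and at 356 to 421, in hrPC12 nearly all of it Cd14, while Ptprc had at most 1 read. The fibroblast sum in hrPC12 was mainly the collagen genes Col1a1 and Col1a2, while Dcn had 36.1 and 21.6 normalized counts in wtPC12 and 2.54 and 4.05 in hrPC12. Schwann cell markers lay at 155 in both wtPC12 libraries and at 236 to 257 in hrPC12, and those of endothelium at 29.1 to 34.0 and at 59.7 to 63.5. The endothelial difference lay in Tek, with means of 22.1 in wtPC12 and 55.1 in hrPC12, while Cdh5 had 9.31 and 7.21 in wtPC12 and 5.93 and 6.07 in hrPC12 and Pecam1 had at most 2 reads. The part of other cell types in the results below was not tested.

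The libraries of hrPC12 stood apart from each other in a way that touches Bex1. Among the 10818 tested genes with a mean of at least 100 normalized counts, the log2 ratio between hrPC12 replicates 1 and 2 (the first over the second) lay within 0.3 of 0 for 73.1%. A separate group of 2111 genes, or 19.5%, lay between 0.5 and 1.2, with a median ratio of 1.77, and only 2.36% lay between 0.3 and 0.5. No such second group is seen between the wtPC12 libraries, but their ratios were spread more widely around 0. With ratios in steps of 0.1, the fullest step held 990 genes in wtPC12 and 2446 in hrPC12. Reads that fell in more than 1 gene made up 0.329% of the reads accounted for in hrPC12 replicate 1 and from 0.105% to 0.146% in the other libraries. Results for Bex1 and Bex2 are therefore given with and without each hrPC12 library.

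Among the Bex genes, Bex2 showed the widest difference between the clones, Bex4 and Ngfrap1 were lower in hrPC12 by smaller factors, and Bex1 had overlapping counts. In 3 of the 4 genes both hrPC12 libraries lay below both wtPC12 libraries, as did 35.6% of all tested genes, while 73.5% did not overlap in either direction. None of the 4 was a DE gene by edgeR's quasi-likelihood test, where 5.46% of all tested genes were DE genes lower in hrPC12 and 10.3% were DE genes in either direction. Unadjusted p values were under 0.05 for 3 of them, all lower in hrPC12, as were adjusted ones. Among all genes tested, 22.7% were lower at an unadjusted p under 0.05 and 16.3% at an adjusted one. DESeq2 called 1 member, Bex2, beside 6.62% of all genes called lower by that tool. Because the contrast was known when the family was chosen, these counts describe the genes and support no statement about the family. In bulk RNA, fewer cells with a transcript and less of it per cell cannot be told apart.

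Bex2 had 7769 and 5344 normalized counts in the wtPC12 libraries. In hrPC12 it had 74.5 in replicate 1 and 425 in replicate 2. Every hrPC12 value was far below the wtPC12 values, but the hrPC12 libraries differed from each other 5.70-fold. They rest on 88 and 420 reads, with exact Poisson intervals (95%, counting error only) of 59.7 to 91.8 and 385 to 468 normalized counts, which do not overlap. Relative to the wtPC12 mean, 1.14% and 6.48% of the counts remained. The mean of wtPC12 was 6557 ± 1715 (SD, n = 2) and that of hrPC12 249.7 ± 248 (SD, n = 2). The log2 FC was −4.72 (SE 0.87), or 26.4-fold lower, and 2.53% of all tested genes had a lower log2 FC. The adjusted p was 0.0161 by edgeR's quasi-likelihood test (Benjamini-Hochberg), past 0.05 and not past the threshold of 0.01. Without hrPC12 replicate 1 the log2 FC was −3.95 and without hrPC12 replicate 2 it was −6.50. With edgeR's RLE factors, library totals alone, no filter beyond 1 read or DESeq2, Bex2 passed both thresholds. With glmTreat, edgeR's filterByExpr, edgeR's legacy option off or a prior count of 2 it did not.

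Bex4 had 4470.4 and 3105 normalized counts in the wtPC12 libraries and 1117 and 1210.2 in those of hrPC12. Both hrPC12 libraries stood at about the same level, 29.5% and 32.0% of the wtPC12 mean, and the groups did not overlap. The means were 3788 ± 966 (SD, n = 2) and 1163 ± 66.2 (SD, n = 2). The fitted log2 FC was −1.70 (SE 0.24), or 3.26-fold lower. Its adjusted p of 0.00695 by edgeR's quasi-likelihood test (Benjamini-Hochberg) was past the threshold, as for 7.14% of all tested genes lower in hrPC12, and its log2 FC was within 2. Its log2 FC stayed below 0 in all 13 alternatives, between −1.94 and −1.45.

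Ngfrap1, which codes for the p75NTR partner BEX3 (NADE), had 8798 and 6418 normalized counts in wtPC12 and 3338 and 3456 in hrPC12. The hrPC12 libraries were nearly level, at 43.9% and 45.4% of the wtPC12 mean, and lay below both wtPC12 libraries. The means were 7608 ± 1683 (SD, n = 2) and 3397 ± 83.8 (SD, n = 2). The log2 FC of −1.16 (SE 0.21), or 2.24-fold lower, had an adjusted p of 0.0155 by edgeR's quasi-likelihood test (Benjamini-Hochberg), past 0.05 but not 0.01. It lay between −1.37 and −0.95 with each library left out in turn.

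Bex1 had 4091 and 2969.8 normalized counts in the wtPC12 libraries. In hrPC12 it had 4508 in replicate 1 and 2665 in replicate 2. The highest and the lowest value both belonged to hrPC12, so the wtPC12 values lay between them. In hrPC12 this is 128% and 75.5% of the wtPC12 mean. These values chose the gene and carry no test. hrPC12 replicate 1 held 1.69 times the normalized count of replicate 2, which places Bex1 in the group of 2111 genes described above. The fitted log2 FC of 0.02 (SE 0.32) changed sign with the hrPC12 library, to −0.41 without replicate 1 and to 0.31 without replicate 2. With a wtPC12 library left out it was 0.23 or −0.19. In all of these the distance from 0 was smaller than that of Ngfrap1, Bex4 and Bex2. The part that the spread between the hrPC12 libraries has in the value of Bex1 was not tested.

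**Figure D1:**
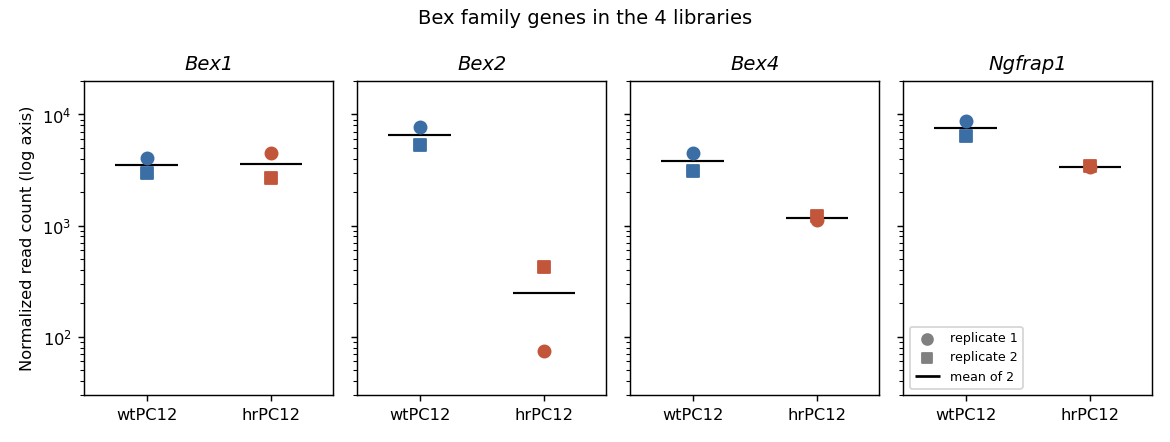
Normalized read counts (log axis) of Bex1, Bex2, Bex4 and Ngfrap1 in wtPC12 (blue) and hrPC12 (red), with circles for replicate 1, squares for replicate 2 and a line at the mean of the 2. Bex1 overlaps between the clones, Bex4 and Ngfrap1 are lower in hrPC12 with level replicates, and Bex2 stands at 74.5 and 425 in the hrPC12 libraries.

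In wtPC12 the members differed between the libraries in the same direction and by similar factors. Each of the 4 had more counts in replicate 1 than in replicate 2, by 1.38-fold for Bex1, 1.45-fold for Bex2, 1.44-fold for Bex4 and 1.37-fold for Ngfrap1. Many other genes showed a ratio of this size, and from 10.8% to 16.1% of genes with a mean of at least 100 normalized counts had a higher one. In hrPC12 the members parted. The log2 ratio of replicate 1 to replicate 2 was 0.76 for Bex1, −0.12 for Bex4, −0.05 for Ngfrap1 and −2.51 for Bex2. Bex4 and Ngfrap1 lay in the main group of genes near 0 and Bex1 in the smaller group near 0.82. Bex2 lay in neither, with only 1.14% of the genes at a lower ratio.

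**Figure D2:**
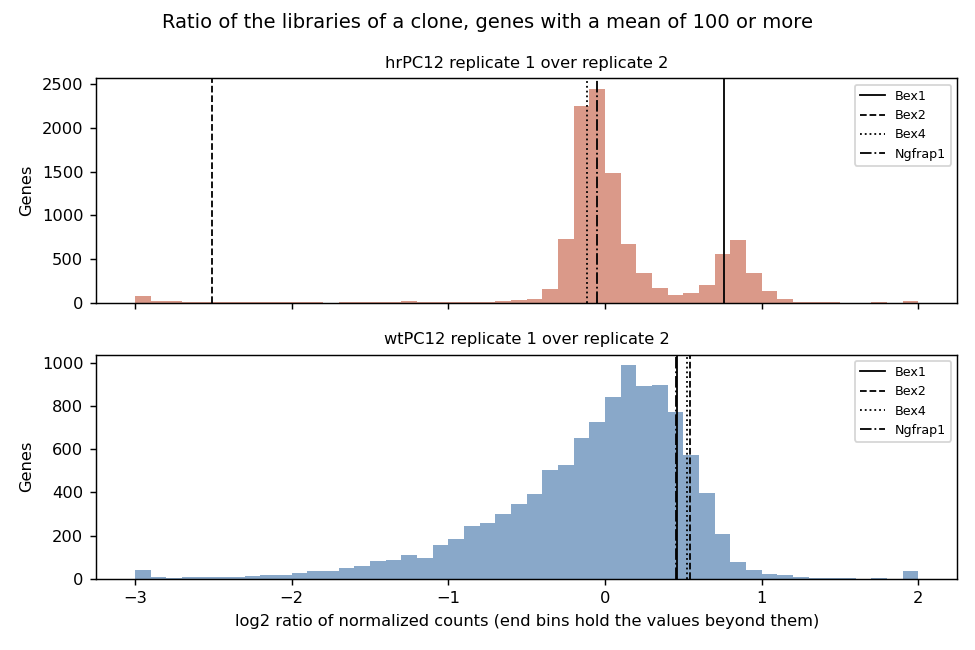
Number of genes by the log2 ratio of normalized counts of replicate 1 over replicate 2, in hrPC12 (top) and wtPC12 (bottom), for the 10818 tested genes with a mean of at least 100 normalized counts, with lines for the 4 Bex genes. The hrPC12 ratios form a main group near 0 and a smaller group of 2111 genes that holds Bex1, while the lines of all 4 genes lie close together in wtPC12.

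Because the symbols of Bex1 and Bex2 have been exchanged between annotations, the reads of both were also summed. This alternative was chosen after the values were seen. An exchange of names would be the same in all libraries and would alter only which gene each row stands for. The sum was 11860 and 8314 normalized counts in wtPC12 and 4582 and 3090.2 in hrPC12, lower in both hrPC12 libraries. Its log2 FC was −1.39 (SE 0.29), or 2.63-fold lower. The sum holds Bex1, which was chosen by its values, so no test is given for it. The ratio of the 2 rows restates the lower counts of Bex2 beside Bex1, which was picked for not being lower. It carries no test. Bex1 reads were 0.527 and 0.556 times the Bex2 reads in the wtPC12 libraries, and 60.5 and 6.27 times in hrPC12 replicates 1 and 2. This ratio was nearly the same in both wtPC12 libraries and was higher in both of hrPC12, by different amounts, so the clones did not overlap in it.

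The genes next to the family were examined for the same differences, in the order of RefSeq for GRCr8, which is not the build of the counts and where Bex1 and Bex2 could have changed places. Of the tested genes, the order is Bex2, Bex4, Tceal8, Bex1, Wbp5 (the old name of Tceal9) and Ngfrap1. Tceal8 and Wbp5, which belong to the TCEAL family of genes resembling an elongation factor, lie between members. Tceal8 had 1569 and 1136 normalized counts in wtPC12 and 1505 and 1670 in hrPC12, values that overlapped between the clones. Wbp5 had 3772 and 2499 in wtPC12 and 8307 and 4731 in hrPC12, with a log2 FC of 1.06 (SE 0.35, adjusted p = 0.0741 by edgeR's quasi-likelihood test, Benjamini-Hochberg). Both of its hrPC12 values lay above those of wtPC12, and its hrPC12 replicate 1 held 1.76 times the count of replicate 2, close to the ratio of Bex1. Over the 22 neighbours, 10 on either side and the pair between, the median log2 FC was 0.26, with a range from −3.50 to 4.58, and 2 were DE genes lower and 2 DE genes higher in hrPC12, where 4.84% of all tested genes were DE genes higher. The log2 ratio of the hrPC12 libraries lay between 0.69 and 0.93 in 6 of the 22 and within 0.3 of 0 in the other 16. No neighbour had a ratio like that of Bex2.

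**Figure D3:**
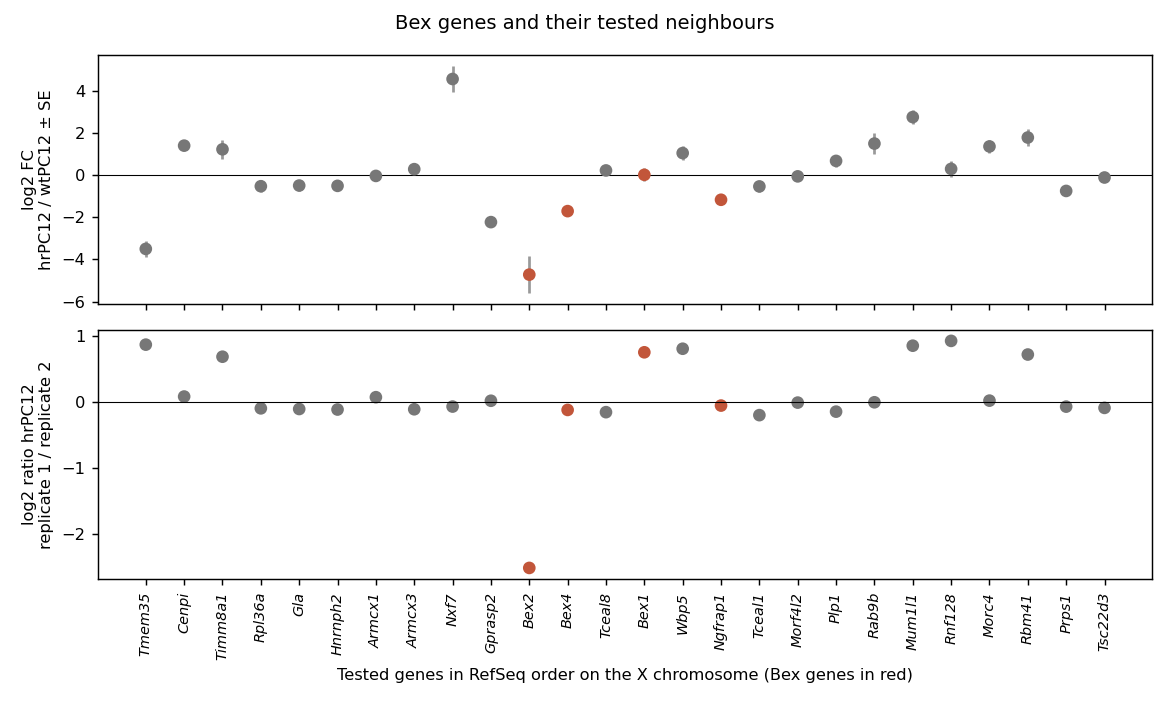
The 4 Bex genes (red) and 22 tested neighbours (grey) in RefSeq order on the X chromosome, with the log2 FC between the clones and its SE (top) and the log2 ratio of the hrPC12 libraries, replicate 1 over replicate 2 (bottom panel). Bex2 is the lowest point of both panels, and Bex1 and Wbp5 share a ratio near 0.8 with 5 other neighbours while Tceal8, between them and Bex4, does not.

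The families that share the chromosomal cluster or the ancestry of the Bex genes are the ARMCX, GPRASP, TCEAL and related genes. Of a list of 19 such genes, 7 were found in the counts by symbol and all 7 were tested. Only Gprasp2 was a DE gene, lower in hrPC12, and none was higher, where 5.46% of all tested genes were DE genes lower and 4.84% higher. Gprasp2, which codes for a protein that sorts G protein-coupled receptors for degradation, had 3983 and 4793 normalized counts in wtPC12 and 946 and 931 in hrPC12. Its hrPC12 libraries were level and far below wtPC12, with a log2 FC of −2.23 (SE 0.19, adjusted p = 0.00150 by edgeR's quasi-likelihood test, Benjamini-Hochberg). It did not pass with glmTreat or without wtPC12 replicate 2. An adjusted p under 0.05 by edgeR's quasi-likelihood test was found for 2 of the 7, Gprasp2 and Armc10. Armc10 (log2 FC 1.54) was higher in both hrPC12 libraries and was named after its values were seen. Among all tested genes 16.3% passed lower and 16.1% higher. The median log2 FC of the 7 was 0.23, with 4 of them above 0 and 3 below. Both hrPC12 libraries lay below both wtPC12 libraries for 2 of the 7 and above for 3, where 37.9% of all tested genes lay above.

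A list of 13 genes holds p75NTR, proteins known to bind it or to act in its signalling, and known partners of BEX proteins. All 13 were found and 10 were tested. The transcripts of the BEX2 partners Lmo2 and Nhlh2 and of Ndn, which codes for the p75NTR partner necdin, had at most 3 reads in any library. Ngfr was the only DE gene among the 10, where 10.3% of all tested genes were DE genes in either direction and 5.46% lower. None of the 10 was higher past both thresholds. Ngfr had 14291 and 13131 normalized counts in wtPC12 and 84.7 and 105 in hrPC12. The transcript of the receptor that BEX1 and BEX3 bind was lower in both hrPC12 libraries, with a log2 FC of −7.17 (SE 0.24, adjusted p = 0.000243 by edgeR's quasi-likelihood test, Benjamini-Hochberg). An adjusted p under 0.05 was found for 3 of the 10, Ngfr, Ripk2 (log2 FC 0.92) and Irak1 (log2 FC 1.19), the latter pair named after their values were seen, where 16.3% of all tested genes passed lower and 16.1% higher. The median log2 FC of the 10 was −0.14. Among the 10, Irak1, Ywhae and Maged1 had ratios between the hrPC12 libraries of 1.74 to 1.79, as in the group of genes that holds Bex1.

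**Figure D4:**
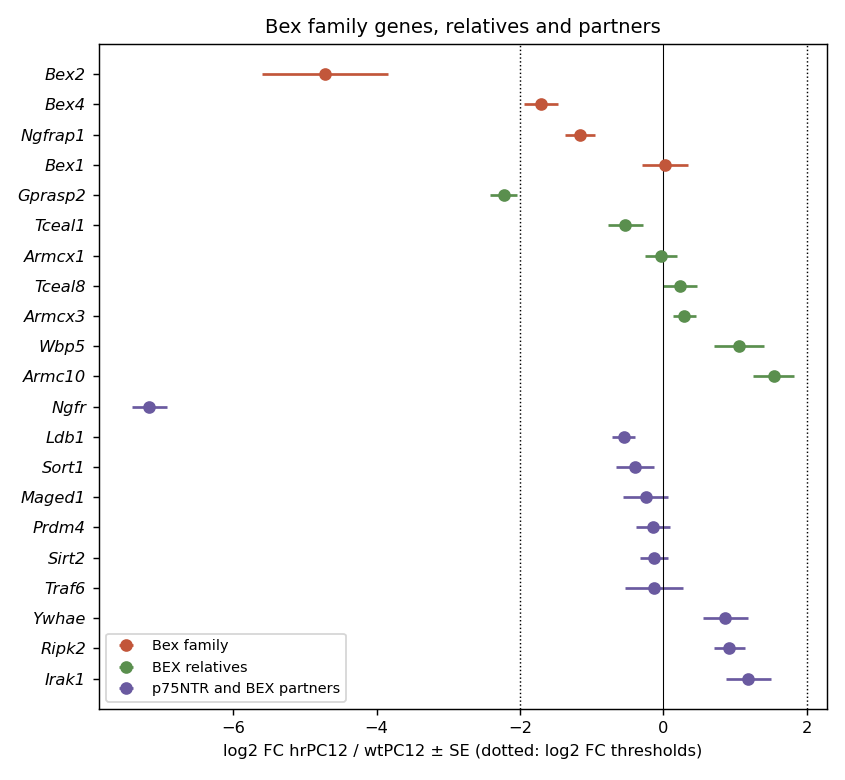
log2 FC of hrPC12 over wtPC12 with its SE for the 4 Bex genes (red), 7 tested relatives (green) and 10 tested partners (violet), with dotted lines at the log2 FC thresholds. Bex2, Gprasp2 and Ngfr lie below −2, and Bex1 lies at 0.02.

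The genes whose pattern over the 4 libraries was most like that of each member were found among 10817 other genes by the distance between log2 normalized counts centred per gene. For Bex1 they were Nme1, Dgcr6 and Trub1, at distances of 0.0385 to 0.0781 on the log2 scale. Nme1, a nucleoside diphosphate kinase gene, had 1553 and 1132 normalized counts in wtPC12 and 1679 and 984 in hrPC12, so it shared the spread between the hrPC12 libraries. For Ngfrap1 they were a gene listed as LOC100359980, Tuft1 and Sepx1 at 0.0349 to 0.0397, and for Bex4 Arl2, Hagh and LOC689959 at 0.0640 to 0.0788. Bex2 had no gene so near. Its nearest, Serpinb1a, a gene of a protease inhibitor, stood at 0.824, followed by Iqsec3 at 1.12 and then by LOC100362689. Serpinb1a had 447 and 333 normalized counts in wtPC12 and 6.77 and 19.2 in hrPC12, lower in replicate 1 than in replicate 2 like Bex2. Between the members themselves the distance was smallest for Bex4 and Ngfrap1 (0.539) and largest for Bex1 and Bex2 (5.65). These distances over 4 libraries are descriptions and say nothing of shared control.

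**Figure D5:**
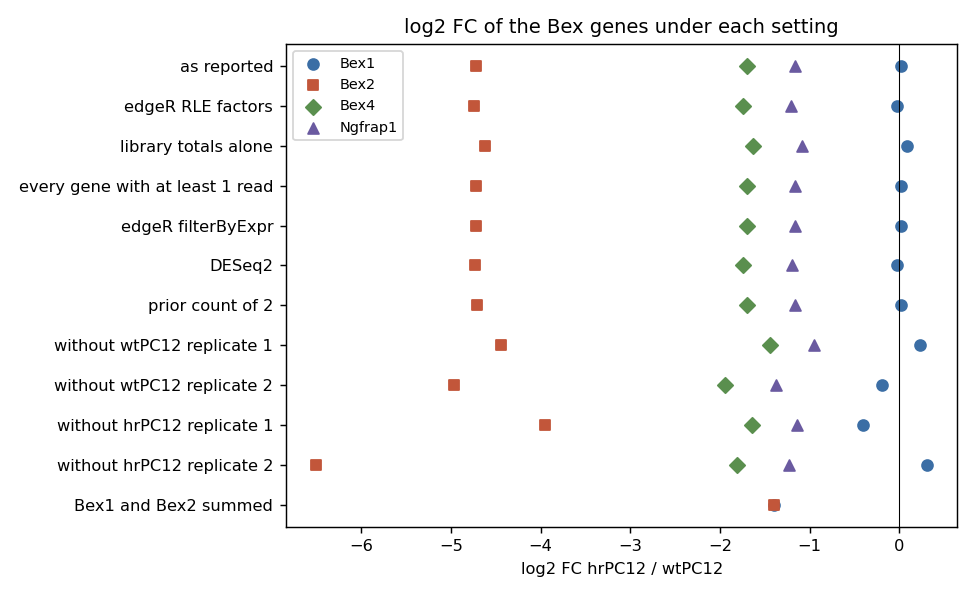
log2 FC of hrPC12 over wtPC12 for each Bex gene under the normalization and filter settings tried, with DESeq2, with a prior count of 2, with each library left out, and with Bex1 and Bex2 summed. The settings with glmTreat, edgeR's legacy option off and an adjusted p under 0.05 are not drawn. The order Bex2, Bex4, Ngfrap1, Bex1 is the same in every setting that keeps the genes apart, and Bex1 lies on either side of 0.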

How the data were processed

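RNA of wtPC12 and hrPC12, 2 libraries each, gave paired-end reads. Alignment by the authors was to the rat build RGSC3.4/rn4, and they deposited raw read counts per gene and library, without normalization or filter. The submitters' processing notes name TopHat2 2.0.4, HTSeq 0.5.3 and DESeq 1.9.12, and the gene annotation is not given in the sources used here. The authors' table of pooled means, fold changes and p values was not used. Totals of reads outside genes or without a unique position, 58.7% to 62.1% of the reads accounted for, were left out.

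Computations used R 4.3.3, edgeR 4.0.16 and DESeq2 1.42.0. The genes kept had reads in each clone and a mean normalized count of 5 or more. They were tested by edgeR's quasi-likelihood method (TMM factors, legacy option on, prior count 0.125), and p values were adjusted by Benjamini-Hochberg over all of them. The SE is the log2 FC divided by the root of F. A count of up to 3 reads, 2.54 to 3.49 normalized counts, was taken as the limit of detection. With 2 libraries per clone no single-gene permutation test can pass, so the spread is shared over genes. Members and lists were chosen with earlier results of these data known. Named genes are the members, Rest, up to 8 DE genes of each list, Ngfr, the 3 genes nearest to each member, and the neighbours between members. Some genes that the lists and this rule covered are not reported here. Others are named as chosen after their values were seen. The alternatives were other scalings, filters, tests and thresholds and each library left out.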

Additional observations from a re-analysis of the deposited data

How the results depend on the processing

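The log2 FC of Bex4 and Ngfrap1 kept their direction and did not pass −2 in all 13 alternatives tried for each, so neither was a DE gene. Other filters, glmTreat and the adjusted p of 0.05 leave the log2 FC as it is and could not turn it. Bex2 was below 0 in all 14 of its own alternatives. Bex2 became a DE gene with edgeR's RLE factors (log2 FC −4.74), library totals alone (−4.62), no filter beyond 1 read (−4.72), DESeq2 (−4.73) and an adjusted p under 0.05 (−4.72), so that the number of Bex genes called was 1 in place of 0. Bex2 did not become one with glmTreat, edgeR's filterByExpr, edgeR's legacy option off or a prior count of 2. With each library left out the log2 FC of Bex2 ranged from −6.50 to −3.95. A library left alone in its clone is assumed to vary like the others. The log2 FC of Bex1 lay between −0.41 and 0.31, and was −1.39 for Bex1 and Bex2 summed. All DE genes numbered 749 lower and 665 higher, and glmTreat gave 353 and 321, and 0 of the BEX relatives. The filter of 1 read gave 1127 higher, and an adjusted p under 0.05 gave 1088. With each library left out they ranged from 0 to 859 lower and from 0 to 962 higher, the BEX relatives lower from 0 to 1, the partners lower from 0 to 1, and the partners' median log2 FC from −0.25 to 0.057. The counts of 0 came without wtPC12 replicate 2 from edgeR's test, where an unadjusted p under 0.05 was found for 3564 genes lower and 3234 higher, and DESeq2 called 732 and 913. Without wtPC12 replicate 1 the partners' median was −0.25 and without replicate 2 it was 0.057. The cause of these changes was not tested. No paired analysis was possible because the labels mark the libraries differently in each clone, share a single mark (b) between clones and name no common batch or day. The replicate numbers used here follow the order of deposit and only name the libraries. Depth limits Bex2 in hrPC12 replicate 1, with 88 reads, more than it does the other values of the family.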

Other observations

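Among the 10818 tested genes with a mean of at least 100 normalized counts, 213 had a log2 ratio of hrPC12 replicate 1 to replicate 2 below −1, and 124 had a ratio at or below that of Bex2, Bex2 included. Of the 293 genes with a log2 FC below −4 at that level, 52 lay below −1 in this ratio, or 17.7%, and their median log2 ratio was −0.17. Bex2 therefore belongs to a minority of the strongly lower genes whose remaining counts differ between the hrPC12 libraries.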
